A study of Mus musculus with 72 samples.

Results

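Livers of male DBA/2J mice on a Western diet rich in isoleucine were compared with livers of male DBA/2J mice on the same kind of diet poor in isoleucine. The comparison rests on 12 RNA sequencing libraries of the 72 in the series, chosen by their labels: 6 with the high-isoleucine diet and 6 with the low-isoleucine diet. A further 6 libraries of DBA/2J males on the control Western diet place both groups, and the high- and low-isoleucine libraries of DBA/2J females (12) and of C57BL/6J males (12, strain field C56BL/6J) show where the males of this strain differ. All groups received a Western diet for 12 weeks and were fasted for 16 h before the liver was taken, so no group shows the liver on another diet or in the fed state. No transgene or drug is named. The labels disagree on the age at the start of the diets, 6 weeks in one text and 18 weeks in another. The age field of every library reads 18 weeks. The labels give neither the time of day of sampling nor a batch. Each group has 3 title numbers, each carried by a library N and a library R whose letters are not explained. Whether every library came from its own mouse is not stated, so p-values measure only how libraries vary, which may include technical variation.

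Mammals cannot make isoleucine, a branched-chain amino acid, and obtain it from dietary protein. When amino acids run short, uncharged transfer RNAs activate the kinase GCN2, and the transcription factor ATF4 then switches on genes of amino acid uptake and synthesis. The fasting liver burns fatty acids under the nuclear receptor PPARA, holds back fat and cholesterol synthesis, and carries a strong circadian clock whose phase follows feeding. Liver expression in mice is also sexually dimorphic, because the rhythm of growth hormone secretion differs between males and females. Interferon-stimulated genes respond to viral infection but are also expressed at a basal level in unchallenged tissue.

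The 12 libraries held 17.2 to 34.8 M counts (M, units of 1e6) with a median of 25.4 M. Levels are given as CPM, counts per 1e6 counts of the scaled library size. Xist, the RNA of the inactive X chromosome, stayed at or below 0.985 CPM in the 12 libraries, and the Y-linked helicase gene Ddx3y lay between 15.9 and 50.4 CPM, as the male labels require. The hepatocyte genes Alb (50300 to 76275 CPM), Apoa1 (7150 to 16809 CPM) and Ttr (3332 to 6750 CPM) were high in every library. The exocrine pancreas genes Prss1, Cpa1 and Pnlip had at most 1 count in any library, and the adipocyte genes Adipoq and Plin1 at most 3 counts. On principal components of the 18 DBA/2J male libraries, the first component (25.6% of the variance) placed the 6 low-isoleucine libraries at 21.3 to 42.6 and the 12 others at -21.3 to -1.78. High-isoleucine library 3 stood apart on the second component (19.2%), at 45.8, and had a quality weight of 0.211 where the other 11 of the 12 lay between 0.728 and 1.8. Where leaving it out ended the call of a gene named below or moved a list's count much, the value without it is given; libraries are numbered 1 to 6 within a group in the order of deposit.

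Expression differed between high and low isoleucine for 2137 of 14954 genes tested (14.3%) by edgeR's quasi-likelihood test at an adjusted p of 0.05. Of these, 1200 rose (8.02%) and 937 fell (6.27%) on high relative to low isoleucine, and 275 rises and 200 falls were at least 2-fold. Counts of list members called below are to be read against the 14.3% called, 8.02% risen and 6.27% fallen over all genes. The median log2 fold change of all genes was 0.007. All 6 high-isoleucine libraries lay above all 6 low-isoleucine libraries for 428 genes (2.86%) and below them for 309 genes (2.07%), and where groups are said not to overlap below, these are the shares to read it against. The count fell to 1251 with the title number as a block in limma and to 940 when the libraries of a title number were summed.

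**Figure D1:**
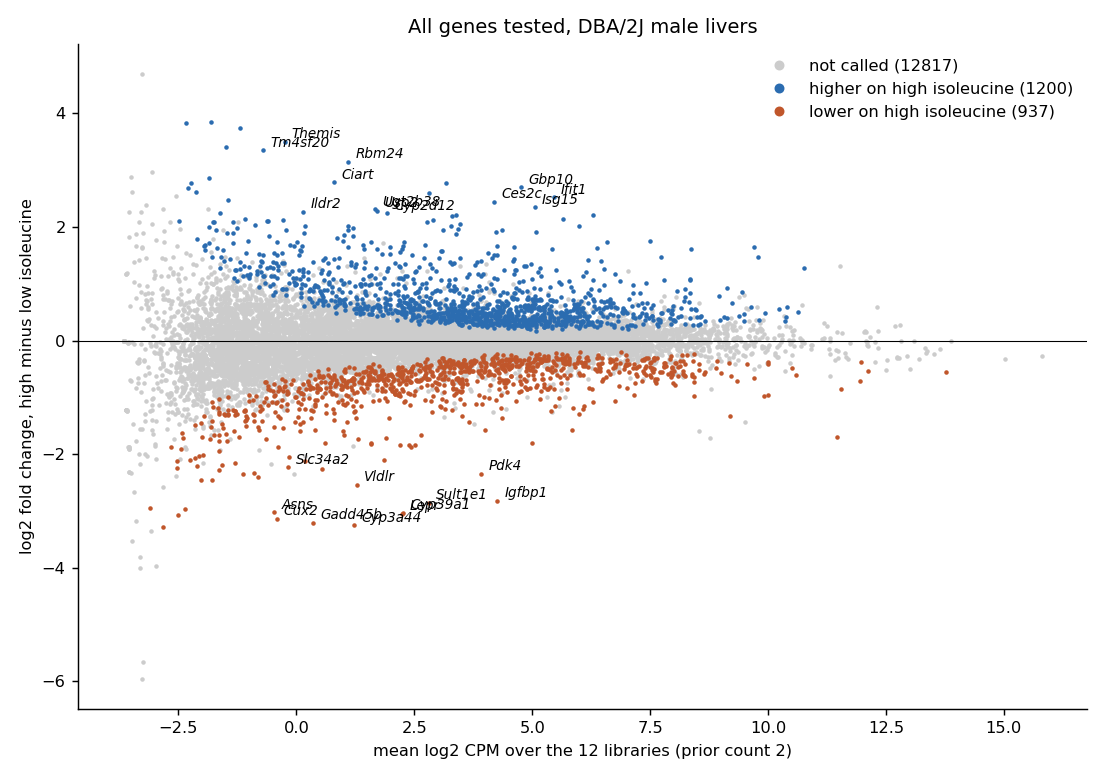
Points are genes among the 14954 tested, each with its mean log2 CPM over the 12 libraries (horizontal) and its log2 fold change between high and low isoleucine (vertical); blue genes rose and orange genes fell on high isoleucine. Labels mark genes with large rises, up to Themis at 3.50, and large falls, such as Cyp3a44 at -3.25, among those with a mean of at least 1 CPM.

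Interferon-stimulated genes rose together on high isoleucine. Of 33 such genes tested, 30 rose and 0 fell, with a median log2 fold change of 1.21 against 0.007 for all genes. By role, 6 of 6 nucleic acid sensors, 4 of 5 transcription factors and 20 of 22 effectors rose, and in 23 of the 33 genes the groups did not overlap. These counts were nearly the same without high-isoleucine library 3 (30 rose), without low-isoleucine library 6 (30) and with the title number as a block (29).

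The 2 effectors with the largest rises, Ifit1 and Isg15, are shown with the 300 bases around their start of transcription, because both carry the interferon-stimulated response element (ISRE), the site of STAT and IRF factors. The windows run from 250 bases before the start to 50 after it, 5′ to 3′ on the gene's strand, from RefSeq on GRCm38.p6. Capitals mark matches on either strand to GAAA, any 2 bases and GAAA again, which overlap each other in Isg15. Ifit1 lies on the plus strand, chr19:34640639-34640938, and Isg15 on the minus strand, chr4:156200769-156201068.
Ifit1: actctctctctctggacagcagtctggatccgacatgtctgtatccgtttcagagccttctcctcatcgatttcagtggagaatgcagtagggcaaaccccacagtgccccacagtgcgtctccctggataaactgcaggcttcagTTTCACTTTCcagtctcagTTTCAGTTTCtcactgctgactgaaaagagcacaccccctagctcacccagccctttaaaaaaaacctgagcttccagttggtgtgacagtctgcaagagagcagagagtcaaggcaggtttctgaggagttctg
Isg15: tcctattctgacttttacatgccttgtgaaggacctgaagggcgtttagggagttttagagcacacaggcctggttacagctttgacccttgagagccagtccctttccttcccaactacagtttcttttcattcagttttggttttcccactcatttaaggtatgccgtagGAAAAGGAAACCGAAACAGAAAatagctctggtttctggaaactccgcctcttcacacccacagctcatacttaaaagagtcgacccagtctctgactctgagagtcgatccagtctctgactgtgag
The element occurred in 13 of the 24 interferon genes with a promoter in the RefSeq table (54.2%), in 9 of 10 interferon-induced GTPase genes (90%) and in 2 of 11 MHC class I genes (18.2%). Among all 32851 windows of this length the share was 3.44%, and by gene it was 4% of tested genes with a window. A match describes the letters of the window and no binding was measured.

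Ifit1, an effector that binds viral RNA, lay at 10.3, 20.7 and 22.9 CPM (lowest, median and highest of 6 libraries) on low isoleucine and at 55.6, 120 and 142 CPM on high isoleucine. The groups were far apart, and the log2 fold change was 2.52 ± 0.28 (SE, adjusted p = 2.2e-09), or 5.75-fold. Isg15, a ubiquitin-like protein that is attached to other proteins in interferon responses, lay at 9.93, 16 and 19.1 CPM on low and at 32.9, 85.4 and 102 CPM on high isoleucine. Its rise was 2.35 ± 0.31 on the log2 scale (adjusted p = 2.1e-07), again without overlap. Ifi44, an interferon-induced cytoplasmic protein, rose by 2.20 ± 0.27 (adjusted p = 4.3e-08). The neighbouring paralogs Ifit3 (2.14) and Ifit3b (2.06) also rose, but reads of such near-identical genes may be shared between them. Low-isoleucine library 6 was the lowest of its group for Ifit1 and for the mean of the list, and leaving it out did not end the call of Ifit1.

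**Figure D2:**
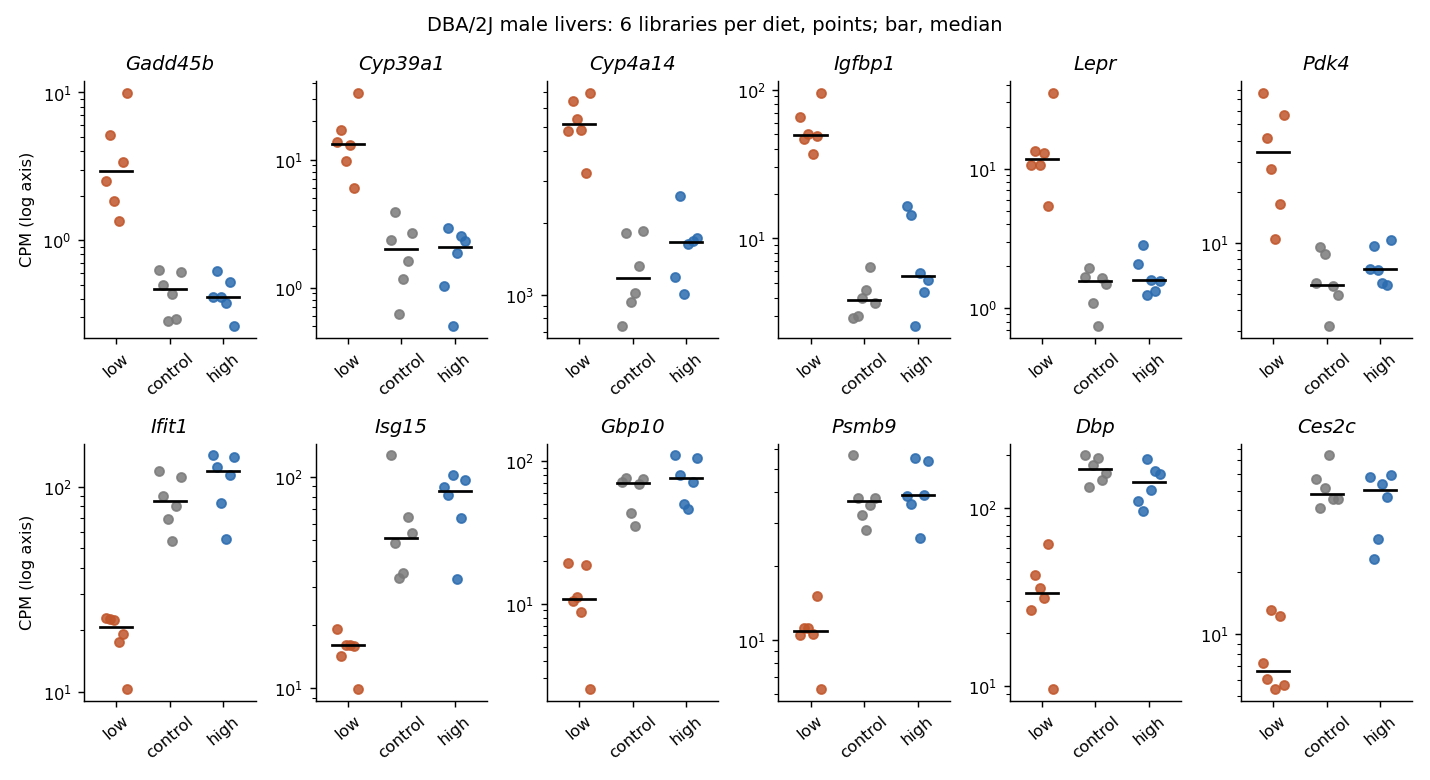
Each panel shows a gene in the 18 DBA/2J male libraries, 6 per diet, as CPM on a log axis; the bar is the median. In the upper row the low-isoleucine libraries lie above the high-isoleucine libraries for all 6 genes (Igfbp1, 36.7 to 95.4 against 2.57 to 16.5 CPM), and in the lower row they lie below them (Ifit1, 10.3 to 22.9 against 55.6 to 142 CPM).

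The interferon-gamma-induced GTPases, which attack the membranes of intracellular pathogens, rose in 11 of 18 cases and fell in 0, with a median of 0.99. They divide into 5 of 10 guanylate-binding proteins and 6 of 8 immunity-related GTPases. Of these 8, 1 had no count in any of the 12 libraries and so could not be called. Gbp10 had 2.53, 10.7 and 19.4 CPM on low and 46.4, 76.1 and 110 CPM on high isoleucine, a change of 2.70 ± 0.51 (adjusted p = 0.00012). The groups did not overlap for Gbp10, and the same held for Gbp11, whose change was 2.21 ± 0.34 (adjusted p = 4.7e-06). Gbp3 (1.94) and Gbp7 (1.41) rose as well; the genes of this cluster on chromosomes 3 and 5 resemble each other, so their counts are uncertain as to member.

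Antigen presentation on MHC class I rose in 9 of 13 genes, with a median of 0.54, and in 7 of 13 without high-isoleucine library 3. Of the genes that cut and load peptides, 6 of 7 rose: Psmb9, a subunit of the immunoproteasome, went from 6.28, 10.8 and 15.1 CPM to 26.1, 38.9 and 55.2 CPM (1.95 ± 0.25, adjusted p = 1.5e-07). The peptide transporter genes Tap1 (1.27 ± 0.20) and Tap2 (1.18 ± 0.18) and the immunoproteasome gene Psmb8 (1.04 ± 0.23) followed with adjusted p of 3.7e-06, 1.8e-06 and 0.00085. Of the heavy and light chains, 3 of 6 rose. MHC class II genes, which mark dendritic cells, macrophages and B cells, were called in 0 of 7 cases; Cd74, their invariant chain, had 25 to 56.8 CPM on low and 25 to 72 CPM on high isoleucine (0.24 ± 0.32, adjusted p = 0.68). Kupffer cell genes were also called in 0 of 13 cases, and their summed level was 207 to 287 CPM on low and 127 to 294 CPM on high isoleucine. The part of immune cell number in the interferon result was not tested beyond these values.

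The circadian clock genes changed in 12 of 19 cases, 8 upward and 4 downward. Of 5 activators 3 were lower and 1 higher, and 5 of 10 repressors were higher. The positive limb consists of the activators Arntl (BMAL1), Clock and Npas2, which bind E-boxes and drive the genes of their own repressors. Arntl lay at 6.08, 10.3 and 16 CPM on low and at 2.48, 2.87 and 4.15 CPM on high isoleucine, and Npas2 at 1.82, 2.79 and 3.82 CPM against 0.522, 0.712 and 1.54 CPM. Both fell without overlap, Arntl by 1.83 ± 0.37 (adjusted p = 0.0003) and Npas2 by 1.80 ± 0.39 on the log2 scale (adjusted p = 0.00074). Clock, named here after its value was seen, fell by 0.59.

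Among the repressors 5 of 10 rose and Per1 fell. Ciart, a repressor of the activator complex, lay at 0.386, 0.773 and 1.48 CPM on low and at 0.84, 4.97 and 9.77 CPM on high isoleucine (2.79 ± 0.66, adjusted p = 0.0021). In 5 of 6 high-isoleucine libraries it was above every low-isoleucine library; libraries 1 to 3 of the high group held 0.84 to 2.24 CPM and libraries 4 to 6 held 7.71 to 9.77 CPM. Bhlhe41, which competes for E-boxes, went from 0.386, 1.2 and 1.89 CPM to 3.47, 4.72 and 5.23 CPM without overlap (1.99 ± 0.42, adjusted p = 0.00061). Per3, Bhlhe40 and Cry2, named after their values were seen, rose by 1.66, 1.13 and 0.59. Per1, which also answers to glucocorticoids, fell by 1.20 ± 0.40 (adjusted p = 0.033), but its groups overlapped widely (4.79 to 39.6 CPM on low and 3 to 13.8 CPM on high isoleucine), and the call was lost without high-isoleucine library 3 (adjusted p = 0.068).

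The output factor Dbp, which carries the rhythm to metabolic genes, lay at 9.65, 33.3 and 62.7 CPM on low and at 96.8, 141 and 189 CPM on high isoleucine. Its groups did not overlap, and its rise was 2.01 ± 0.45 (adjusted p = 0.0013), or 4.03-fold. Usp2, a deubiquitinase gene with a clock-driven rhythm in liver, went from 0.933, 1.82 and 2.35 CPM to 1.54, 9.09 and 13.5 CPM (2.28 ± 0.56, adjusted p = 0.0029). As for Ciart, high-isoleucine libraries 1 to 3 held less Usp2 (1.54 to 6.07 CPM) than libraries 4 to 6 (12.1 to 13.5 CPM). Dbp was not split in this way, with 96.8 to 189 CPM and 126 to 162 CPM. With the title number as a block in limma, the calls of Ciart (adjusted p = 0.082) and Usp2 (adjusted p = 0.11) were lost. No time of day is given, and its part in these values was not tested.

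Ciart and Bhlhe41 are shown for the E-box, CACGTG, the site of the ARNTL and CLOCK proteins, which reads alike on both strands and is in capitals. Both lie on the minus strand of GRCm38.p6, Ciart at chr3:95882179-95882478 and Bhlhe41 at chr6:145865371-145865670.
Ciart: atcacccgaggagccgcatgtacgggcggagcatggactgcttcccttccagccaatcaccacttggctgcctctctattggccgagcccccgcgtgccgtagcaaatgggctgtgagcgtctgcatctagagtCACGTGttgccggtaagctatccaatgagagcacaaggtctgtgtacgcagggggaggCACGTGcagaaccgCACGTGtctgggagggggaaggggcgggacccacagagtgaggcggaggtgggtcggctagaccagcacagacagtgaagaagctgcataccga
Bhlhe41: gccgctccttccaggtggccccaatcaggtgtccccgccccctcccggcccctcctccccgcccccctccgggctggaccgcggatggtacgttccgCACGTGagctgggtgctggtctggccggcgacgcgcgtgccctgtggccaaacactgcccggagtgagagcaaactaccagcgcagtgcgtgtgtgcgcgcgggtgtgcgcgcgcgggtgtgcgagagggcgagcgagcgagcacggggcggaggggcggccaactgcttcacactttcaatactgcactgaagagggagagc
The window of Ciart held 3 E-boxes and that of Bhlhe41 held 1. Of the clock repressors with a promoter in the table, 4 of 8 held an E-box (50%), against 7.15% of all windows and 11.5% of tested genes. None of the 4 activators with a promoter held this motif in the window. TAGGTCA is the core of the element bound by ROR and REV-ERB proteins. It was in the windows of Arntl and of Nfil3, a repressor that binds D-boxes. Of all windows 2.61% held it, and of tested genes 2.53%.

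**Figure D3:**
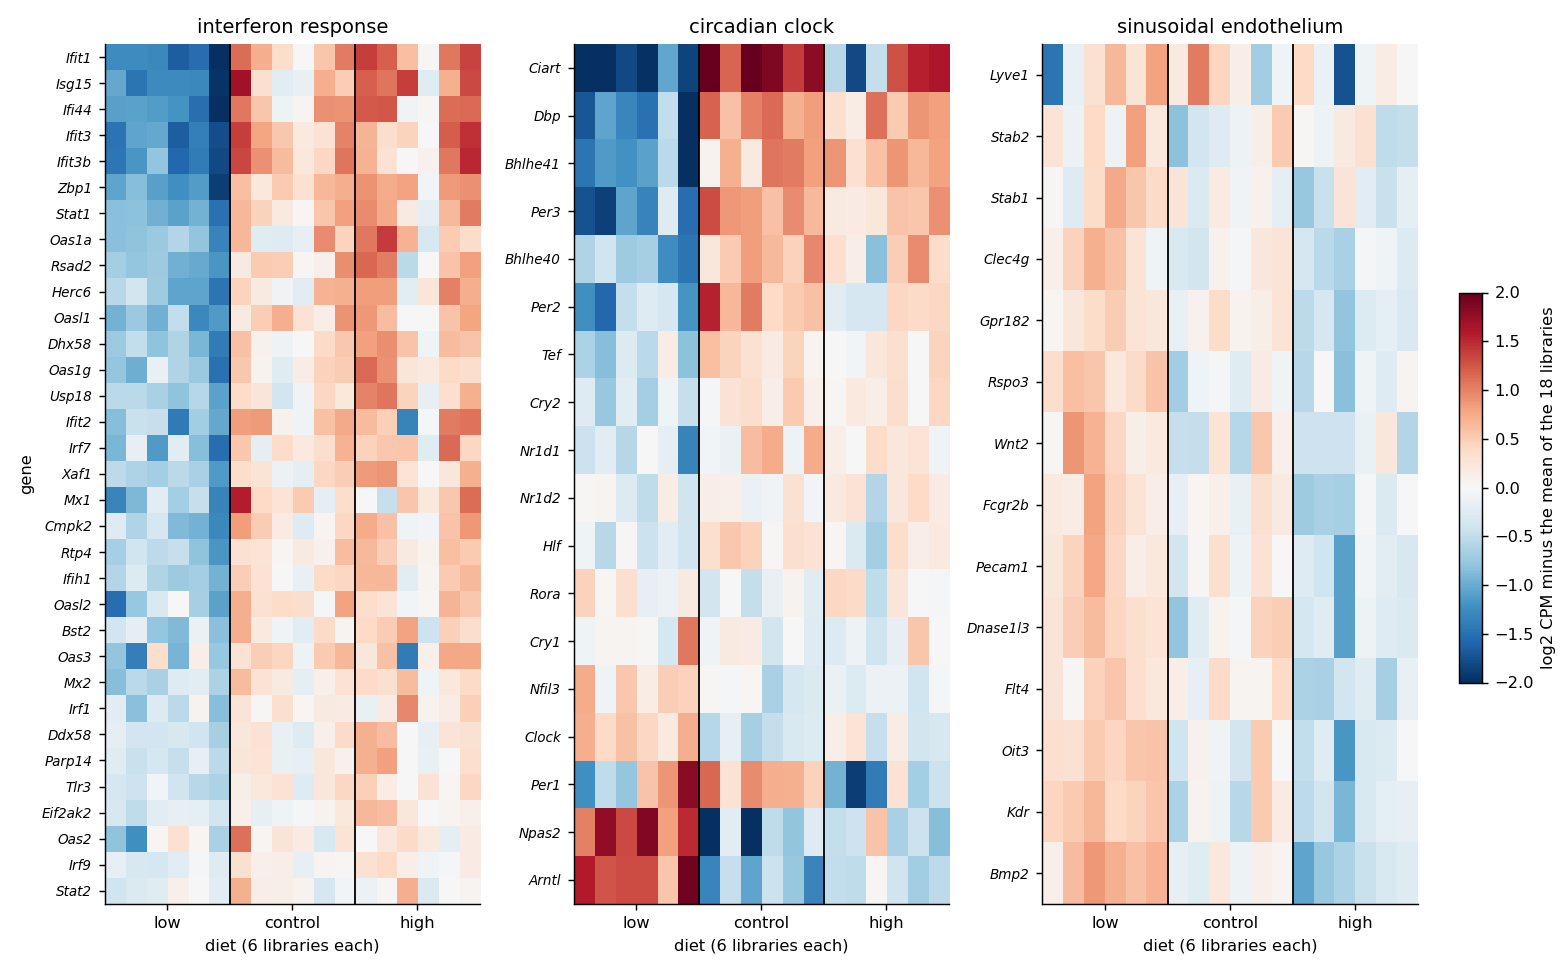
Rows are tested members of the interferon, clock and sinusoidal endothelium lists, ordered by fold change, and columns the 18 DBA/2J male libraries; colour is log2 CPM minus the mean of the 18, with shades ending at 2 in either direction. Most interferon rows are blue across the 6 low-isoleucine libraries, with exceptions such as Oas2 and Oas3, clock rows split by direction, and endothelial rows are redder in the low- than in the high-isoleucine libraries (12 of 14 fell).

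Liver genes of sexual dimorphism moved apart. Of 30 genes known to be higher in female liver, 10 fell on high isoleucine and 1 rose, with a median of -1.11, whereas of 29 male-biased genes 7 rose and 0 fell, with a median of 0.57. Some of the falling genes, among them Cyp4a10, Cyp4a14 and Vldlr, are also known targets of the fasting response. Without low-isoleucine library 6 the counts were 7 female-biased falls and 5 male-biased rises, and with libraries summed per title number 7 and 3. The mean log2 CPM of the male-biased list was 6.77 to 7.70 on low isoleucine. It was 7.86 to 8.33 in high-isoleucine libraries 1 to 3, but 7.38 to 7.62 in libraries 4 to 6, within the low range. The female-biased list had 1.96 to 2.95 on low isoleucine. Its high-isoleucine libraries 1 to 3 had 0.736 to 1.125 and libraries 4 to 6 had 1.58 to 1.75.

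Cyp39a1, an oxysterol hydroxylase, lay at 6.01, 13.3 and 33.3 CPM on low and at 0.498, 2.09 and 2.92 CPM on high isoleucine (-3.03 ± 0.38, adjusted p = 6e-08), with no overlap. Sult1e1, the estrogen sulfotransferase, lay at 10.7, 17 and 49 CPM against 0.498, 2.84 and 6.31 CPM (-2.86 ± 0.55, adjusted p = 0.00019). Cyp3a44, a female-specific cytochrome, lay at 3.08, 7.61 and 13.1 CPM against 0.496, 0.743 and 1.29 CPM (-3.25 ± 0.55, adjusted p = 2.1e-05). These 3 genes separated the groups in all libraries; Cyp3a44 has close paralogs, with which its reads may be shared. Cux2, a female-specific transcription factor, had 12.6 CPM in low-isoleucine library 6 and at most 2.83 CPM in the other 5, and its fall of 3.14 ± 0.84 (adjusted p = 0.0069) was not called without that library, where the log2 fold change was -1.64.

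On the male-biased side, Mup20, a major urinary protein and pheromone, rose from 342 to 795 CPM on low to 1174 to 2176 CPM on high isoleucine (1.47 ± 0.38, adjusted p = 0.0053). Cyp2u1, a fatty acid hydroxylase (1.24 ± 0.21, adjusted p = 1.7e-05), and Cyp2f2, a periportal cytochrome (0.85 ± 0.16, adjusted p = 8.8e-05), rose as well. Ugt2b38, a UDP-glucuronosyltransferase, rose by 2.31 ± 0.58 (adjusted p = 0.004), with 5 of 6 high-isoleucine libraries above all of the low group. Of 15 genes of growth hormone signalling, the receptor gene Ghr rose (0.43 ± 0.12), while the prolactin receptor gene Prlr (-0.80 ± 0.20), Igfbp2 (-0.97 ± 0.30) and Igfbp1 (below) fell. The call of Igfbp2 held in 7 of the 12 fits that left out a library, and those of Ghr (adjusted p = 0.051) and Igfbp2 (adjusted p = 0.064) were lost with the title number as a block. Igf1, the hepatic growth factor that growth hormone induces, had 642 to 920 CPM on low and 457 to 915 CPM on high isoleucine (-0.34 ± 0.16, adjusted p = 0.16).

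Some genes of the fasting response fell on high isoleucine, while most were not called. Of 33 genes of fatty acid oxidation, 9 fell and 1 rose, and the median was -0.11. Of the omega-oxidation genes and other PPARA targets 5 of 9 fell, and of PPARA and the beta-oxidation genes 4 of 21. Cyp4a14, a fatty acid omega-hydroxylase, lay at 3220, 5141 and 6975 CPM on low and at 1012, 1661 and 2589 CPM on high isoleucine. Its fall was 1.69 ± 0.18 on the log2 scale (adjusted p = 3e-10), and its paralogs Cyp4a10 (-0.86 ± 0.13) and Cyp4a31 (-1.80 ± 0.28), with which it may share reads, fell too. Pdk4, the kinase that shuts off pyruvate dehydrogenase in fasting, lay at 10.5, 34.2 and 76.6 CPM against 5.6, 6.96 and 10.3 CPM (-2.34 ± 0.45, adjusted p = 0.00016). The low- and high-isoleucine libraries did not overlap for Cyp4a14 or Pdk4. The 3 ketone body genes were not called.

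Igfbp1, whose secreted product binds insulin-like growth factors and whose expression fasting and amino acid shortage raise, lay at 36.7, 49.6 and 95.4 CPM on low and at 2.57, 5.55 and 16.5 CPM on high isoleucine. It fell by 2.82 ± 0.65 (adjusted p = 0.0017). Lepr, the leptin receptor gene, lay at 5.43, 11.8 and 35.1 CPM against 1.25, 1.58 and 2.85 CPM (-3.05 ± 0.55, adjusted p = 6.4e-05). Gadd45b, a stress-induced growth arrest gene, lay at 1.35, 2.94 and 9.96 CPM against 0.261, 0.414 and 0.621 CPM (-3.21 ± 0.46, adjusted p = 1e-06). All 3 separated the groups without overlap. The gluconeogenic enzymes were called in 0 of 5 cases, and Pck1, which commits substrates to glucose, had 973 to 2248 CPM on low and 981 to 1868 CPM on high isoleucine (-0.06 ± 0.19, adjusted p = 0.89). Of 10 glucocorticoid-induced genes 4 fell, among them Fkbp5 (-1.01 ± 0.27) and Sgk1 (-1.06 ± 0.33), with 1 left without high-isoleucine library 3 and 0 without low-isoleucine library 6 by the same edgeR test.

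**Figure D4:**
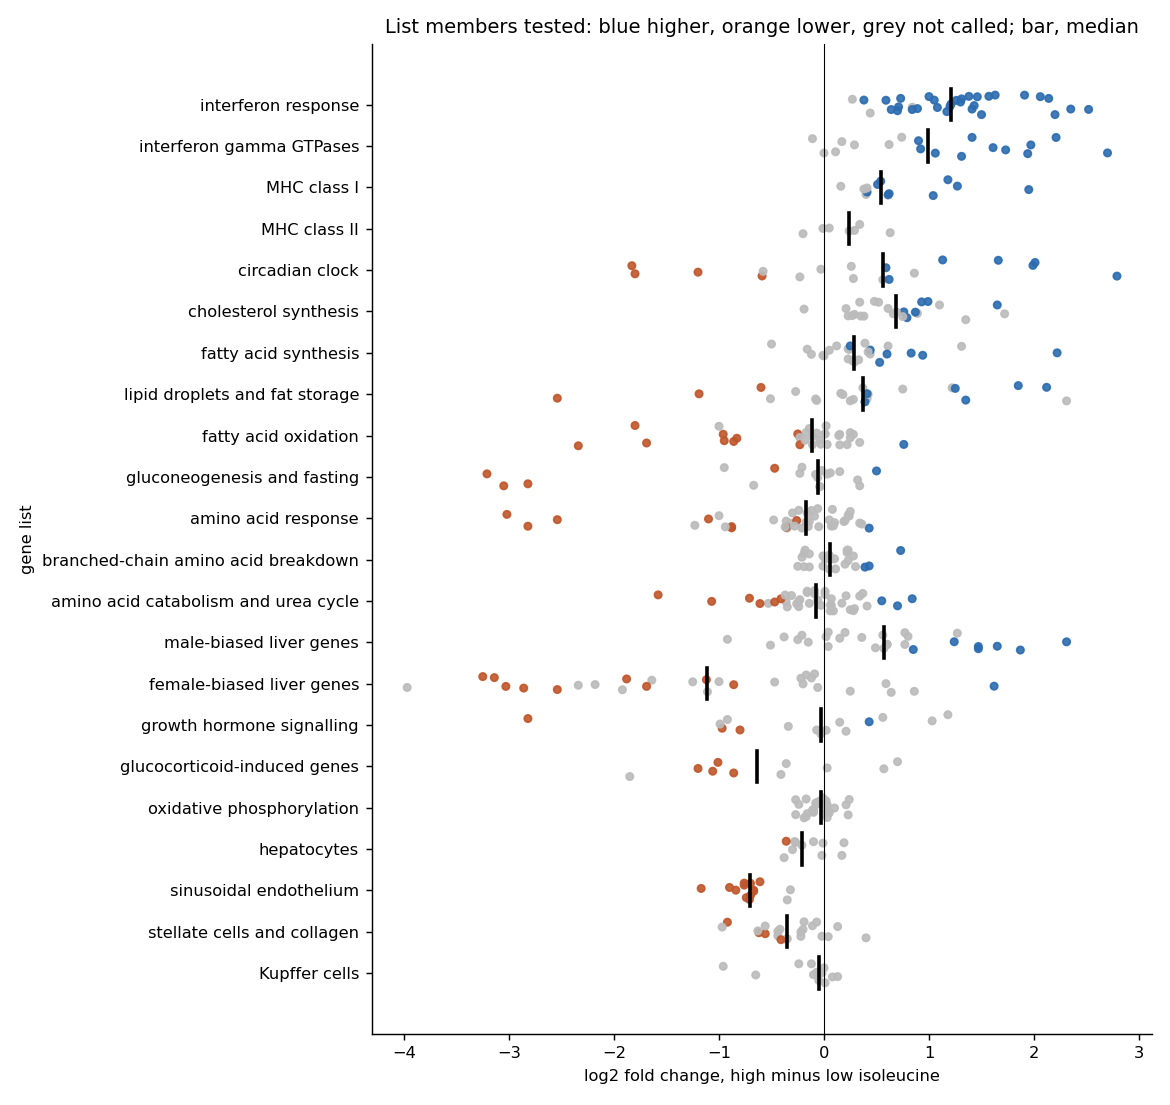
Points are tested members of the gene lists, each at its log2 fold change between high and low isoleucine; blue members rose, orange members fell, grey members were not called, and the bar is the median of all tested members. The interferon list (median 1.21, 30 of 33 rose) lies to the right, and the female-biased list (median -1.11) and sinusoidal endothelium (median -0.71, 12 of 14 fell) lie to the left.

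Genes of fat and cholesterol synthesis rose in part. In fatty acid synthesis 7 of 25 rose and 0 fell (median 0.29), and in cholesterol synthesis 7 of 25 rose and 0 fell (median 0.69). Thrsp, a nuclear factor of lipogenesis, lay at 3.55, 5.08 and 9.16 CPM on low and at 9.24, 17.4 and 55.6 CPM on high isoleucine (2.22 ± 0.53, adjusted p = 0.0025), a call lost with the title number as a block (adjusted p = 0.055). Pklr, liver pyruvate kinase (0.94 ± 0.22, adjusted p = 0.0023), and Srebf1, the gene of the lipogenic factor SREBP1 (0.83 ± 0.29, adjusted p = 0.041), rose. The call of Srebf1 held in 4 of the 12 fits that left out a library each; it was lost without high-isoleucine library 3 (adjusted p = 0.066) and with the title number as a block (adjusted p = 0.094). Fasn, fatty acid synthase, had 27.3 to 45.5 CPM on low and 41.5 to 80.7 CPM on high isoleucine but was not called (0.61 ± 0.24, adjusted p = 0.071), nor was the desaturase Scd1 (1.31 ± 0.50, adjusted p = 0.065). The sterol synthesis enzymes Msmo1 (1.65 ± 0.43) and Dhcr7 (0.93 ± 0.22) and the sterol carrier Stard4 (0.99 ± 0.26) rose. Without high-isoleucine library 3 the rises numbered 12 in fatty acid synthesis and 13 in cholesterol synthesis; with the title number as a block they numbered 2 and 4.

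Fat storage genes moved both ways, with 6 rises and 3 falls among 23. Pparg, the nuclear receptor that drives steatosis when expressed in hepatocytes, lay at 3.75, 4.35 and 5.27 CPM on low and at 7.93, 11.3 and 14.5 CPM on high isoleucine. It rose by 1.35 ± 0.20 (adjusted p = 1.7e-06) without overlap. Fitm1, a protein of lipid droplet formation, rose from 1.93, 3.68 and 5.81 CPM to 7.38, 17.7 and 22.7 CPM (2.12 ± 0.37, adjusted p = 3.7e-05). Vldlr, the VLDL receptor, fell from 1.48, 5.45 and 19.5 CPM to 0.289, 1.29 and 1.64 CPM (-2.54 ± 0.47, adjusted p = 0.0001), with 4 of 6 high-isoleucine libraries below all of the low group. Cidec, which fuses lipid droplets, had 24.1 CPM in high-isoleucine library 2 and 2.25 to 9.46 CPM in the other 11, and was not called (1.22 ± 0.46, adjusted p = 0.065). Bile acid genes were called in 1 of 22 cases, the export pump gene Abcc3 (0.83 ± 0.20, adjusted p = 0.0029). Cyp7a1, the rate-limiting enzyme of bile acid synthesis, had 55.6 to 332 CPM on low and 105 to 271 CPM on high isoleucine (0.51 ± 0.41, adjusted p = 0.44).

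Of 41 genes of the amino acid response, 8 were lower on high isoleucine and 1 higher, with a median of -0.17. The counts were 5 and 1 with the title number as a block, and 2 and 0 with libraries summed per title number. Asns, asparagine synthetase and a classical ATF4 target, lay at 0.555, 1.57 and 5.35 CPM on low and at 0.202, 0.216 and 0.327 CPM on high isoleucine. The groups did not overlap, and the fall was 3.02 ± 0.79 (adjusted p = 0.0053), although its call was lost with the title number as a block (adjusted p = 0.15). Slc7a5, the transporter of large neutral amino acids including isoleucine, fell from 2.47, 2.97 and 3.76 CPM to 1.07, 1.26 and 2.41 CPM (-1.10 ± 0.21, adjusted p = 0.0001), and Ddit3, the stress factor CHOP, fell by 0.88 ± 0.20 (adjusted p = 0.0014). The list's members Igfbp1 and Vldlr, described with other groups, fell as well. Of the panel genes of the response, Trib3, Fgf21 and Gdf15 were not called. Trib3 had 8.74 to 30.5 CPM on low and 14.1 to 37.1 CPM on high isoleucine (-0.09 ± 0.24, adjusted p = 0.86). The hormone gene Fgf21 had 17.8 to 138 CPM against 20.6 to 39.7 CPM (-1.0 ± 0.40, adjusted p = 0.084), and Gdf15 differed by -0.28 ± 0.50 (adjusted p = 0.77). Of the transfer RNA synthetases 2 of 12 fell. In the unfolded protein response 2 of 22 genes fell, Herpud1 (-0.75 ± 0.24) and Dnajb9 (-0.66 ± 0.20), against 6.27% of all genes. Without high-isoleucine library 3, 0 fell by the same edgeR test.

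Asns is shown for the core of the element that ATF4 binds with C/EBP factors, TGATGNAA on either strand, in capitals, on the minus strand of GRCm38.p6 at chr6:7693160-7693459.
Asns: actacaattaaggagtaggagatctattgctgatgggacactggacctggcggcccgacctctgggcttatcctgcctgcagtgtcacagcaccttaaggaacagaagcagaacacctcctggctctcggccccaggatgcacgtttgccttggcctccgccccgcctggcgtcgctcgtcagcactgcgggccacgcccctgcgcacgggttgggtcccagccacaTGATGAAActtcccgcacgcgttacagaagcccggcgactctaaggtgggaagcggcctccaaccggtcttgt
The core was in 12 of 33 amino acid response genes with a promoter in the table (36.4%). Among these, 5 of 7 transfer RNA synthetase genes held it. It was in 3.97% of all windows and in 2.98% of tested genes.

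Of 26 genes that break down isoleucine, leucine and valine, 3 rose and 0 fell, and the median was 0.06. This is near the share over all genes, of which 14.3% were called and 8.02% rose. The transaminases and the branched-chain ketoacid dehydrogenase complex, which commit these amino acids to breakdown, were called in 0 of 7 cases, and its subunit gene Bckdhb had 104 to 128 CPM on low and 66 to 114 CPM on high isoleucine (-0.21 ± 0.11, adjusted p = 0.19). The 3 rises were in later steps: Mmab, of cobalamin metabolism (0.73 ± 0.16, adjusted p = 0.00065), Mccc1, of leucine breakdown (0.43 ± 0.11, adjusted p = 0.0032), and Hibadh, of valine breakdown (0.39 ± 0.12, adjusted p = 0.02, and 0.0505 without high-isoleucine library 3). None of the 3 is an enzyme of isoleucine breakdown before propionyl-CoA. Among 40 genes of other amino acids and the urea cycle, 3 rose and 6 fell, against 8.02% and 6.27% over all genes. Kmo went from 203, 227 and 272 CPM to 311, 372 and 434 CPM (0.70 ± 0.11, adjusted p = 3.2e-06) and Haao from 187, 246 and 297 CPM to 363, 418 and 537 CPM (0.84 ± 0.14, adjusted p = 1.8e-05). Both act in the kynurenine pathway from tryptophan to NAD, and neither overlapped between the groups. Otc, a urea cycle enzyme, rose by 0.55 ± 0.12 (adjusted p = 0.00055), and Cdo1, which oxidises cysteine, fell by 0.61 ± 0.10 (adjusted p = 1.8e-05). The 6 falls all lay among genes of methionine, glycine, serine and related amino acids.

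Genes of the sinusoidal endothelium, the perforated lining of liver capillaries, fell in 12 of 14 cases, with a median of -0.71, and 9 did not overlap between the groups. Bmp2, the endothelial signal that sets hepcidin in hepatocytes, lay at 8.91, 13.2 and 15.1 CPM on low and at 3.92, 5.67 and 6.9 CPM on high isoleucine (-1.17 ± 0.16, adjusted p = 2.1e-07). Kdr, the VEGF receptor 2 gene, lay at 28.1, 29.9 and 33.7 CPM against 11.3, 16.8 and 18.9 CPM (-0.90 ± 0.19, adjusted p = 0.00051). The Wnt amplifier Rspo3 (-0.70 ± 0.13) and the VEGF receptor gene Flt4 (-0.76 ± 0.16) fell in the same way. The summed level of the list was 296 to 384 CPM on low, 203 to 307 CPM on control and 195 to 250 CPM on high isoleucine. Stab2, a scavenger receptor that defines these cells, had 51.6 to 98.7 CPM on low and 39.3 to 69.7 CPM on high isoleucine and was not called, nor was Lyve1. In bulk tissue, fewer cells of a type and less RNA per cell cannot be told apart. Without high-isoleucine library 3, 11 of the 14 fell, and 10 with the title number as a block.

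Other cell type lists moved less. Falls in the stellate list lay above the 6.27% of all genes that fell. Calls in the infiltrating macrophage and lymphocyte lists lay near the 14.3% of all genes called. Of 22 genes of stellate cells and collagen 4 fell, among them Des (-0.62 ± 0.14, adjusted p = 0.0017), with 1 left without high-isoleucine library 3 and 1 without low-isoleucine library 6. Of 15 genes of infiltrating macrophages 2 fell, Cd9 (-1.04 ± 0.20) and Lpl (-1.19 ± 0.38), both of which other liver cells also express; the call of Lpl was lost with the title number as a block (adjusted p = 0.068). Of 17 lymphocyte genes, Cd79a (-1.41 ± 0.46) and Ms4a1 (-1.47 ± 0.51) of B cells fell, with adjusted p of 0.028 and 0.041, and Cd4 rose (1.61 ± 0.33, adjusted p = 0.00031), from 0.877 to 2.85 CPM on low to 3.58 to 6.19 CPM on high isoleucine. Neither B cell gene was called with the title number as a block (adjusted p = 0.22 and 0.32). Cd79a was lost in 3 of the 12 fits that left out a library each, up to an adjusted p of 0.099 without low-isoleucine library 3, and Ms4a1 in 7, up to 0.25 without low-isoleucine library 1, which held 1.22 CPM where the other 5 held 0.106 to 0.561 CPM. Of the hepatocyte lists, Hnf4a (-0.36 ± 0.12, adjusted p = 0.037) and the pericentral Cyp2e1 (-0.55 ± 0.15, adjusted p = 0.0058) fell. From the periportal list Cyp2f2 and Aldh1b1 (0.88 ± 0.31, adjusted p = 0.042) rose. Among the 11 general hepatocyte genes, 9 had a log2 fold change below 0 (median -0.21), and only Hnf4a was called. Alb had 57365 to 76275 CPM on low and 50300 to 56682 CPM on high isoleucine, without overlap, but was not called. The calls of Hnf4a and Aldh1b1 each held in 5 of the 12 fits that left out a library, and both were lost with the title number as a block (adjusted p = 0.085 and 0.079); Hnf4a was also lost without high-isoleucine library 3 (adjusted p = 0.077). Cholangiocyte genes gave 0 calls of 7 and neutrophil genes 0 of 3 by edgeR, and of 6 erythroid genes 1 rose. A single pancreas gene could be tested, Cela1, which rose by 0.52, and a single adipose gene, Cfd, which was not called (adjusted p = 0.26).

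Stress and drug-response lists had members called above and below the share over all genes, of which 14.3% were called. Of 22 genes of NRF2 and glutathione 1 fell, the glutathione transferase gene Gstm2 (not called without high-isoleucine library 3, adjusted p = 0.055), and of 18 targets of the drug receptors CAR and PXR 2 rose and 3 fell. Of 26 acute phase genes 1 rose and 2 fell, of 13 p53 targets 2 rose and 1 fell, and of 17 immediate early genes 1 fell. Of 13 heat shock genes only Rbm3 fell. The CAR and PXR list and the p53 list lay above the 14.3%, by few genes, and the other lists lay below it.

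Further large changes fell outside these groups. Themis, known from T cell selection, lay at 0, 0.201 and 0.555 CPM on low and at 0.83, 3 and 4.68 CPM on high isoleucine (3.50 ± 0.66, adjusted p = 0.00012). Rbm24, an RNA-binding regulator of splicing, went from 0.211, 0.783 and 1.09 CPM to 4.13, 7.32 and 8.14 CPM (3.15 ± 0.56, adjusted p = 4.1e-05). Ces2c, a carboxylesterase, went from 5.42, 6.63 and 13.1 CPM to 23.1, 50.2 and 59.4 CPM (2.44 ± 0.32, adjusted p = 2.2e-07). None of these 3 genes overlapped between the groups. Tm4sf20, a membrane protein (3.35 ± 0.69), Ildr2, a membrane protein of hepatic lipid handling (2.27 ± 0.48), and the cytochrome Cyp2d12 (2.24 ± 0.47) rose with adjusted p of 0.00078, 0.00062 and 0.00047; the call of Ildr2 was lost with the title number as a block (adjusted p = 0.12). Slc34a2, a phosphate transporter, fell by 2.23 ± 0.51 (adjusted p = 0.0015), and the cold-inducible RNA-binding protein gene Rbm3 fell by 1.20 ± 0.22 (adjusted p = 5.7e-05), from 72.8 to 136 CPM to 29.9 to 56.4 CPM. Of 23 cell cycle genes 3 rose and 1 fell, a share near the 14.3% called over all genes, with Ccne1 (1.74 ± 0.36) and E2f1 (1.37 ± 0.30) higher and Mcm7 (-0.57 ± 0.12) lower; 0 of 9 mitotic genes were called. The 30 nuclear-encoded genes of oxidative phosphorylation and the 13 mitochondrial genes gave 0 calls by edgeR, with medians of -0.03 and -0.33; their lowest adjusted p were 0.058 (Cox4i1) and 0.079 (mt-Co1).

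The control diet places these differences. In DBA/2J males, low isoleucine changed 2644 genes relative to control (17.7%), 1118 upward and 1526 downward, and high isoleucine changed 2 (0.0134%), both upward. The 2 genes were the ubiquitin ligase gene Fbxo32 (0.92) and Cpne5 (4.03). Cpne5 had 0 to 0.0616 CPM on control, so its fold change is uncertain. It had 0.785 and 2.01 CPM in high-isoleucine libraries 1 and 2, but 0.0866 to 0.291 CPM in libraries 3 to 6. Without high-isoleucine library 2, high isoleucine changed 0 genes relative to control. In that comparison with all libraries, 1261 genes had an unadjusted p under 0.05 in edgeR, and DESeq2 called 14. These comparisons share the low or the high libraries with the main comparison, so their values are only set side by side. The genes that rose on high against low isoleucine had a median of 0.59 in that comparison, of -0.57 in low minus control and of 0.02 in high minus control. For those that fell the medians were -0.65, 0.52 and -0.09. For the interferon list the medians were 1.21, -1.07 and 0.17, and for the sinusoidal endothelium -0.71, 0.36 and -0.38. Ifit1 had 54.5 to 119 CPM on control, Dbp 132 to 198 CPM, Cyp4a14 741 to 1854 CPM and Igfbp1 2.94 to 6.47 CPM. In the 12 genes plotted by library, the control libraries lay with the high-isoleucine libraries and apart from the low-isoleucine libraries.

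The effect of high against low isoleucine differed between DBA/2J males and DBA/2J females for 80 genes (0.535%) and between DBA/2J and C57BL/6J males for 755 genes (5.05%), by interaction terms in edgeR. With the title number as a block in limma these counts were 4 and 54. Leaving out a library of the 12 moved the first count between 60 and 167 and the second between 381 and 1192, with both maxima without high-isoleucine library 3.

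Against females, large negative differences were those of Saa2 (-6.14 ± 1.26, adjusted p = 0.0097), Cyp3a44 (-5.27 ± 0.70, adjusted p = 2.1e-06) and Saa1 (-5.08 ± 1.10). Cyp3a44 fell in males (-3.25), whereas in females it had 55.4 to 260 CPM on low and 156 to 863 CPM on high isoleucine (2.03). The difference of Cyp3a44 was also called with the title number as a block (adjusted p = 0.042). The acute phase genes Saa1 and Saa2 were not called in males and were very uneven: low-isoleucine library 1 held 443 CPM of Saa2 where the other 5 held 3.35 to 31.9 CPM. Without that library the difference was not called for Saa2 (adjusted p = 0.15) or Saa1 (adjusted p = 0.094). The female high-isoleucine libraries were uneven too, with 5.48 to 789 CPM of Saa2 (median 21.4) and 12.4 to 1373 CPM of Saa1 (median 34). No female library was left out in turn. The most positive differences were those of Usp2 (2.93 ± 0.76), Ces2c (2.11 ± 0.47), the matrix protein gene Omd (2.04 ± 0.44) and the G protein gene Gnai1 (1.96 ± 0.47). None of these 4 was called with the title number as a block (adjusted p of 0.49, 0.23, 0.33 and 0.18), and Usp2 was called in 3 of the 12 fits that left out a library. Ces2c lay at 1.82 to 6.95 CPM on low and at 2.77 to 7.72 CPM on high isoleucine in females, near the male low-isoleucine libraries.

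**Figure D5:**
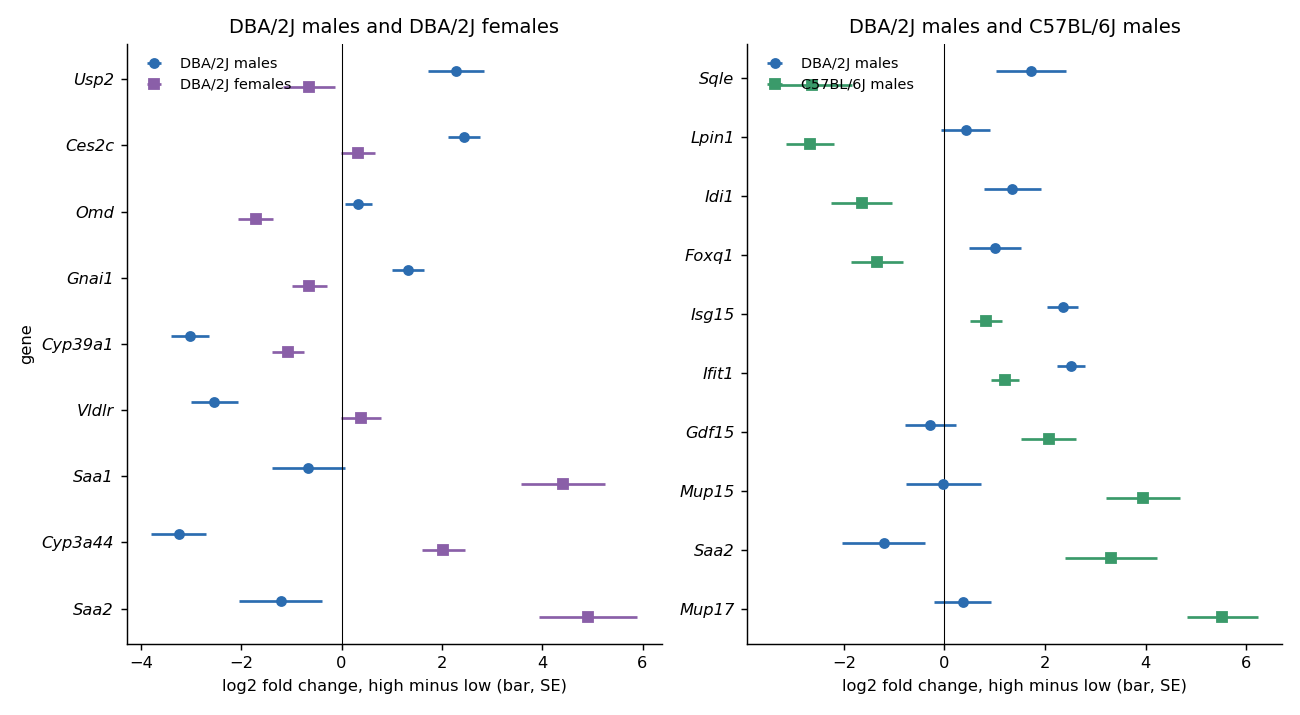
Log2 fold changes between high and low isoleucine with their SE, for genes whose effect differed by an interaction term: DBA/2J males (blue circles) beside DBA/2J females (left, purple squares) and beside C57BL/6J males (right, green squares). Cyp3a44 lies at -3.25 in DBA/2J males and at 2.03 in DBA/2J females, and Mup17 at 0.36 in DBA/2J males and at 5.53 in C57BL/6J males.

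Against C57BL/6J males, the most positive differences were those of the sterol synthesis genes Sqle (4.37 ± 1.07, adjusted p = 0.012) and Idi1 (3.01 ± 0.83, adjusted p = 0.025), of Lpin1 (3.11 ± 0.67, adjusted p = 0.0047), a phosphatidate phosphatase, and of the factor gene Foxq1 (2.35 ± 0.73, adjusted p = 0.046). Sqle lay in C57BL/6J males at 1.09 to 17 CPM on low and at 0.32 to 1.17 CPM on high isoleucine (-2.64), and in DBA/2J males at 0.388 to 4.6 CPM and 0.872 to 19.5 CPM (1.72, adjusted p = 0.089). The median of the cholesterol list was 0.69 in DBA/2J males and -0.38 in C57BL/6J males; the difference of the lists was not tested. Mup17 (-5.18 ± 0.87, adjusted p = 0.00032) and Mup15 (-3.97 ± 1.01, adjusted p = 0.015) had the opposite sign. Mup17 lay at 388 to 1215 CPM on low and 647 to 1383 CPM on high isoleucine in DBA/2J males (0.36, adjusted p = 0.74), and at 1.63 to 14.5 CPM and 76.2 to 729 CPM in C57BL/6J males (5.53). The major urinary protein genes are near-identical copies that differ between strains, so single members are uncertain. Of these genes, Mup17 alone was also called with the title number as a block (adjusted p = 0.014). The interferon genes Ifit1 (1.32 ± 0.38, adjusted p = 0.032) and Isg15 (1.52 ± 0.44, adjusted p = 0.033) had larger effects in DBA/2J males, where the interferon list had a median of 1.21 against 0.48 in C57BL/6J males. Both calls were lost without high-isoleucine library 1 (adjusted p = 0.067 and 0.058) and with the title number as a block (adjusted p = 0.14 and 0.16). In DBA/2J females the interferon list had a median of 1.31, so a large rise was not particular to the males. The list medians were not tested against each other. Foxq1 was called in 3 of the 12 fits that left out a library.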

How the data were processed

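Liver RNA of 72 libraries was sequenced, and the 18 of DBA/2J males carry the results. The authors deposited expected counts per Ensembl gene, from reads aligned to GRCm38.p5 per the labels' protocols; no aligner, counter or strand setting was given in the sources used here. Per the submitters' processing notes, edgeR and limma under R 3.4.3 and the build GRCm38 were used. The labels describe the library once as stranded poly(A) mRNA and once by a guide for stranded total RNA. The table has 50308 lines; the last is incomplete, with values for 3 libraries, and 50307 were used. The authors' tables of fold changes were not used here. Depth over all libraries was 13 to 51.1 in units of 1e6 counts.

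Expected counts were rounded to whole numbers, filtered with filterByExpr and scaled by TMM (factors 0.841 to 1.14). The 14954 genes left went into edgeR's quasi-likelihood test, in 1 fit of the 72 libraries with a mean per group and 60 residual degrees of freedom. The common biological coefficient of variation was 0.21, and the threshold was a Benjamini-Hochberg adjusted p of 0.05 over all genes. The test was tested on simulated data. Software was data.table version 1.17.8, DESeq2 1.42.0, limma 3.58.1 and edgeR 4.0.16 under R 4.3.3. Alternatives were DESeq2, RLE size factors, no filter, library quality weights, the title number as a block (limma), the 18 or 12 libraries alone, libraries summed per title number, and each library left out in turn; the last was chosen after seeing the data for every comparison but high against low isoleucine. Promoter windows came from RefSeq on GRCm38.p6.

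The comparison, the 41 gene lists, the tests and the naming rule were chosen with earlier results of these data known. Named are the 12 largest rises and 12 largest falls whose mean reached 1 CPM and whose symbol is not a provisional one, the members of each list lowest in adjusted p (up to 4), a panel of 12 genes whatever their test (Asns, Trib3, Fgf21, Gdf15, Fasn, Scd1, Srebf1, Cidec, Pck1, Igf1, Cyp7a1 and Bckdhb), the 4 largest differences each way per interaction, and marker genes that check the labels; not every gene so named is described. The lists were those of the report and of NRF2 and glutathione, CAR and PXR targets, the acute phase, p53 targets, immediate early genes, heat shock, cholangiocytes, neutrophils, erythroid cells, pancreas and adipose tissue. A few genes are not reported here and are left out of the plots; counts and medians include them.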

Additional observations from a re-analysis of the deposited data

Results flagged for a closer look

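In a group of 6 libraries, a highest or lowest library was singled out where its gap to the nearest library, divided by the range of the group, was above Dixon's critical value of 0.625. Of 152 such tests 13 passed, and chance alone passes about 1 in 20. High-isoleucine library 3 was the lowest of its group for Ildr2 (0.655), Bckdhb (0.687) and the mean of the Kupffer cell list (0.7), and the highest for Trib3 (0.72) and the hepatocyte list (0.692). Low-isoleucine library 6 was the lowest for Ifit1 (0.653) and the interferon list (0.73), and the highest for the lists of gluconeogenesis and fasting (0.691), p53 targets (0.752) and glucocorticoid-induced genes (0.731). High-isoleucine library 1 was the lowest for Vldlr (0.689), high-isoleucine library 2 the lowest for the periportal list (0.769), and low-isoleucine library 1 the highest for the acute phase list (0.695).

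For the genes below, an interaction term in edgeR was past the threshold for the log2 difference between high and low isoleucine in DBA/2J males against another class. Against DBA/2J females the effect in DBA/2J males minus that in females was 2.11 for Ces2c (adjusted p = 0.0146), 2.93 for Usp2 (adjusted p = 0.0498), -5.27 for Cyp3a44 (adjusted p = 2.07e-06), -1.98 for Cyp39a1 (adjusted p = 0.0316) and -2.94 for Vldlr (adjusted p = 0.0101). Against C57BL/6J males it was 1.32 for Ifit1 (adjusted p = 0.0324), 1.52 for Isg15 (adjusted p = 0.0327) and -2.35 for Gdf15 (adjusted p = 0.0469). With the title number as a block in limma, only Cyp3a44 of these 8 genes was called (adjusted p = 0.042); the others had an adjusted p of 0.23 (Ces2c), 0.49 (Usp2), 0.39 (Cyp39a1), 0.25 (Vldlr), 0.14 (Ifit1), 0.16 (Isg15) and 0.19 (Gdf15). Of the 12 fits that left out a library, the call held in 3 for Usp2, 4 for Gdf15, 7 for Ifit1, 9 for Isg15 and 9 for Cyp39a1.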

How the results depend on the processing

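Of the 188 named genes, 113 were called, and none of the 113 turned its direction under any alternative run. DESeq2 kept 112 of the 113 calls and the title number as a block kept 83. The 2137 genes changed between high and low isoleucine (1200 higher, 937 lower) numbered 1251 (732, 519) with the title number as a block, 1286 (698, 588) in a fit of the 12 libraries alone and 940 (550, 390) with libraries summed per title number. Leaving out each library in turn gave 1532 to 2353 changed genes (863 to 1313 higher, 669 to 1040 lower), with the lowest count without low-isoleucine library 6. The 80 genes that differed from females numbered 205 with DESeq2, 53 without a filter, 366 with library quality weights, 4 with the block and 60 to 167 with a library left out (167 without high-isoleucine library 3, 140 without low-isoleucine library 6). The 755 that differed from C57BL/6J males numbered 394 without a filter, 54 with the block and 381 to 1192 with a library left out (381, 393 and 1192 without high-isoleucine libraries 1, 2 and 3, and 493 without low-isoleucine library 2). Low against control isoleucine gave 1649 with the block, against 2644. High against control isoleucine gave 14 with DESeq2, 1 with quality weights, 0 with the block, 0 in the fit of 18 libraries and 0 to 7 with a library left out, against 2. The cause of these shifts was not tested. Deviations from the group mean correlated by -0.365 to 0.243 within title numbers (median -0.13, 9 pairs) and by -0.501 to 0.153 between them (median -0.231, 36 pairs). Deviations from a shared mean correlate negatively on average even between unrelated libraries. Over the 72 libraries the block fit estimated a correlation of 0.244 within title numbers, which the main test does not model. No paired analysis was run, because the diets share no title number and the replicate numbers are only the order of deposit. In DBA/2J males the title numbers of control, low and high isoleucine are consecutive: 10, 11 and 12, then 2, 3 and 4, then 6, 7 and 8. Whether such numbers mark sets of animals is not stated, and no fit used them as sets. Genes with a few counts per library, such as Asns on high isoleucine, have fold changes limited by depth.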
